A study of Mus musculus with 2 samples.

Results

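The proteins of the cytoplasmic ribosome were described here at the level of their mRNAs in mouse regulatory T (Treg) cells. Members were the rows whose gene symbol starts with Rpl or Rps followed by a digit, a or p, leaving out pseudogene symbols and the Rps6k kinases. This took 87 of 24081 gene symbols, 52 with the prefix Rpl (large subunit) and 35 with the prefix Rps (small subunit). Of these, 77 are genes of the standard ribosome, called core genes below, 9 are paralogs or retrogenes of core genes, and 1, Rps19bp1, encodes a binding partner of Rps19 and no ribosomal protein. Only genes with a mean of at least 20 reads over both libraries were compared; 79 members met this, 73 of them core genes, against 10899 of all genes.

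The study asks what Treg cells need SUMOylation for, the coupling of SUMO, a small ubiquitin-like protein, onto target proteins. Both libraries came from CD4+ YFP+ cells, sorted out of spleen and lymph nodes of C57BL/6 mice aged 5 weeks with the genotype Foxp3cre/wt, in which a Cre recombinase fused to YFP is expressed from the Foxp3 locus, the locus active in Treg cells. The KO library came from mice with both alleles of a SUMO pathway gene floxed (fl/fl), and the WT library from mice with 1 floxed and 1 intact allele (fl/wt), so the control cells carried Cre and a floxed allele too. Foxp3 lies on the X chromosome, and mice with 1 Cre allele also hold Treg cells without Cre, which the YFP sort leaves out. Each library was a pool of cells from 5 to 10 mice, and each group had 1 library. No difference below therefore has a replicate check, and none carries a p-value. In the labels the genotype entry of the KO sample also says wild type, so KO and WT rest on the titles, and the design text gives the alleles. In CPM (reads scaled to an equal library total), Foxp3, the defining transcription factor of Treg cells, stood at 1320 CPM in KO and 713 CPM in WT, and Il2ra at 1211 CPM in KO and 889 CPM in WT. The other Treg markers were lower in KO, with 88.8 CPM in KO and 143 CPM in WT for Ctla4 and 203 CPM in KO and 322 CPM in WT for Ikzf2. Summed markers of other cells were 71.4 CPM in KO and 77.1 CPM in WT for 3 B cell genes, and 361 CPM in KO and 390 CPM in WT for Lyz2 and Csf1r of monocytes and macrophages. The part of these differences in the results was not tested.

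A eukaryotic ribosome has a small subunit, which binds the mRNA and decodes it, and a large subunit, which joins amino acids and releases the chain through an exit tunnel. Ribosomal proteins are needed in near equal numbers, apart from the acidic stalk proteins, and their mRNAs start with a tract of pyrimidines, the 5′ terminal oligopyrimidine (TOP) motif, through which mTORC1 signalling controls their translation. Resting T cells make few ribosomes and enlarge the pool when they are activated. Because that control acts largely on translation, the level of these mRNAs is not a measure of ribosome production.

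Reads assigned to genes numbered 23789264 in the KO library and 11662867 in the WT library. Folds below are ratios of counts after TMM scaling, which corrects for this difference in depth. The brackets give exact 95% intervals for counting error, which hold no spread between mice. A gene was called higher or lower in the KO library at 1.5-fold or more, on a log2 ratio with a pseudocount of 1. In bulk RNA, fewer cells of a type and less RNA per cell cannot be told apart.

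As a group the ribosomal protein mRNAs took almost the same share of each library, but single members differed in a graded way. Their share of gene reads was 5.48% in KO (exact interval 5.47 to 5.49) and 5.38% in WT (5.37 to 5.40). After scaling, the summed reads of the 79 measured members were 1.07-fold higher in the KO library (1.07 to 1.08). Those of all measured genes were 1.055-fold higher, so the sum of the members lay close to that of all genes. The median member had a log2 ratio of 0.25, beside 0.01 for all measured genes, and 61 of the 79 members lay above 0, which is 77.2%, beside 51.4% of all genes. Of the 79 members, 15 passed 1.5-fold on the higher side in KO, which is 19% of members, beside 7.43% of all measured genes. At least 1.5-fold lower were 2 members (2.53%), beside 5.51% of all measured genes. The other 62 lay between. Scaling by total gene counts instead of TMM moved every log2 ratio by -0.08, which turned 10 of the 79 members from just above 0 to below it, among them Rpl3, Rpl4, Rpl7 and Rpl10. Directions this close to 0 therefore rest on the scaling.

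The median and the sum differ because the most counted genes lay near or below 0. The 10 most counted members took 34.5% of ribosomal protein reads in the KO library and 40.2% in the WT library. Rpl4, which lines the exit tunnel, had the most reads of all members, 69646 in the KO library and 34739 in the WT library (1.04-fold higher, 1.02 to 1.05, below 1 with total counts). Rpl5, which carries 5S ribosomal RNA into the large subunit, had 52656 and 29271 reads in KO and WT (1.07-fold lower, 1.06 to 1.09).

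The ratio also went with base composition across the whole table. Across all measured genes, its Spearman correlation with the GC content of the mRNA was 0.43, given as a description across genes. The core genes had a median GC content of 52.4%, beside 50.3% for all measured genes. When a smooth trend on GC content and mRNA length, fitted across 10853 genes, was removed, the median of the members was 0.13, beside 0.04 for all genes. Then 6 members were at least 1.5-fold higher, beside 5.01% of all genes, and the same 2 were lower, beside 5.04%. Values with this trend removed are given below for many genes and groups, though not for all. A value given without one may depend on the trend too. Over the 73 measured core genes, the Spearman correlation of ratio and GC content was only 0.18, and -0.35 with the trend removed. Whether the removal goes too far for GC-rich members was not tested.

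**Figure D1:**
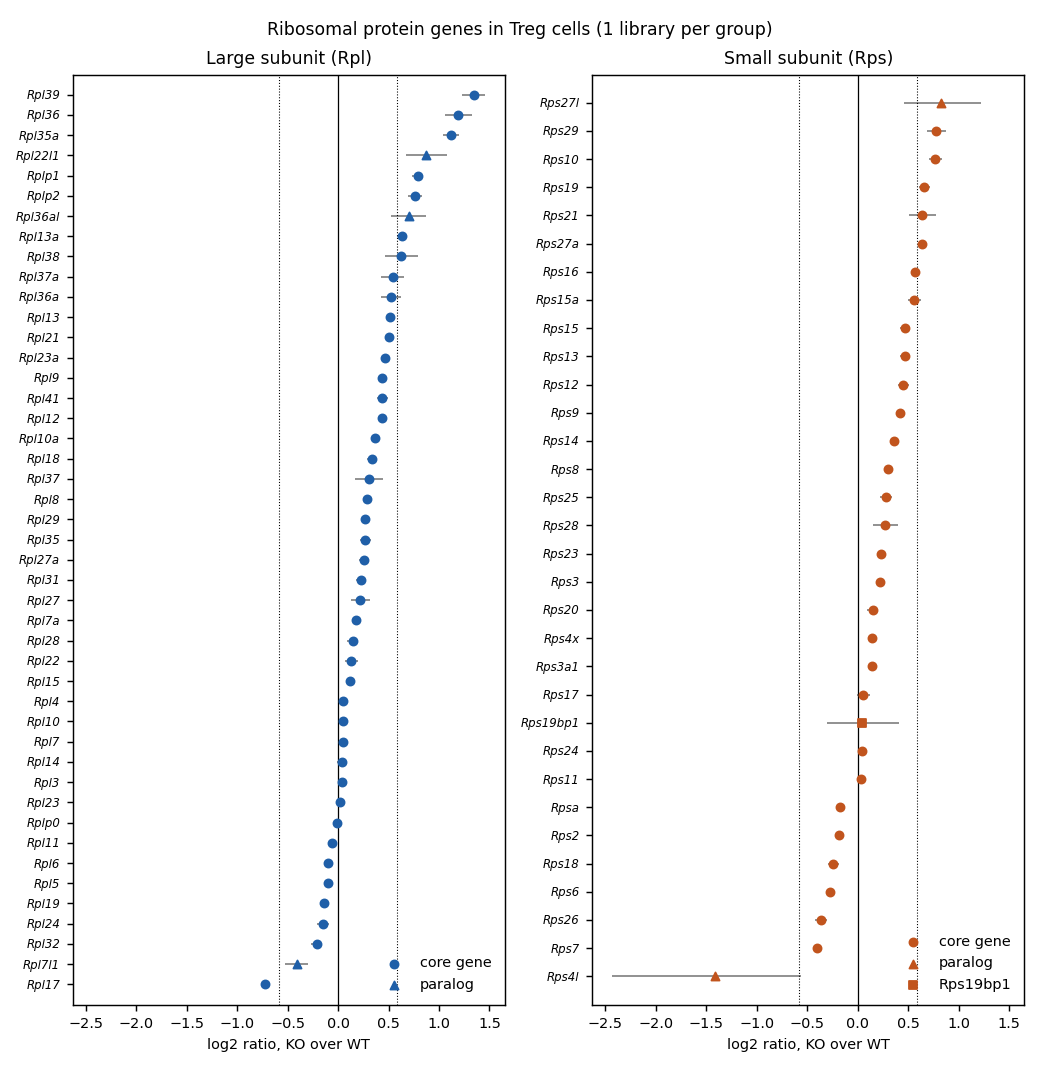
Log2 ratio of KO over WT (x axis) for 77 of the 79 measured members, with 45 Rpl genes on the left and 32 Rps genes on the right, ordered by ratio. Points are single libraries compared, bars are 95% intervals for counting error, and dotted lines mark 1.5-fold; Rpl39 stands at the top with 1.34, Rpl17 is the lowest core gene with -0.73, and Rps4l, with few reads, has the widest bar.

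The highest ratios belonged to large subunit genes. Rpl39, one of the smallest ribosomal proteins, which lies in the wall of the exit tunnel (chromosome X, 37082520 to 37085402, GRCm38), had 3669 reads in the KO library and 748 in the WT library. That is 2.54-fold higher in the KO library (2.34 to 2.75), the highest ratio of any measured member. Rpl36 (chromosome 17, 56613416 to 56614243) had 2396 reads in KO and 543 in WT, 2.28-fold higher (2.08 to 2.51). Rpl35a (chromosome 16, 33056453 to 33060189), a gene mutated in human Diamond-Blackfan anemia, had 7281 reads in KO and 1733 in WT, 2.17-fold higher (2.06 to 2.29). These 3 were the members past 2-fold upward. Not every gene for a small protein was high: Rpl41, with the shortest coding sequence of all members at 75 nucleotides, had 10667 reads in KO and 4070 in WT (1.36-fold higher, 1.31 to 1.41; -0.03 on the log2 scale with the trend removed). With the GC and length trend removed, Rpl39 and Rpl35a had log2 ratios of 1.23 and 0.95, and Rpl36, whose mRNA has a GC content of 60.8%, had 0.49, under 1.5-fold.

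The lateral stalk was uneven. Rplp1 and Rplp2 are the acidic proteins that recruit the GTPases of translation, and Rplp0 is the scaffold that holds them. Rplp1 had 10651 reads in the KO library and 3192 in the WT library (1.73-fold higher, 1.66 to 1.80). Rplp2 had 6978 in KO and 2125 in WT (1.70-fold higher, 1.62 to 1.78). Rplp0, in contrast, had 51869 in KO and 27090 in WT, a ratio of 0.990 whose interval holds 1 (0.976 to 1.005). With the GC and length trend removed, Rplp1, Rplp2 and Rplp0 stood at 0.29, 0.33 and 0.03 on the log2 scale, so that neither acidic protein gene passed 1.5-fold.

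Of the 9 listed genes of the exit tunnel and its rim, 8 were measured. Their median log2 ratio was 0.25. Of the 8, 2 passed 1.5-fold upward (25%, beside 7.43% of all measured genes), 1 downward (12.5%, beside 5.51%), and 5 lay between. Besides Rpl39, the higher one was Rpl38, a gene needed in mice for normal patterning of the skeleton, with 1270 reads in KO and 425 in WT (1.55-fold higher, 1.38 to 1.73; 0.12 on the log2 scale with the trend removed). Rpl23a at the tunnel exit had 16898 in KO and 6342 in WT (1.38-fold higher, 1.34 to 1.42), Rpl35 8168 and 3504 (1.21-fold) and Rpl31 10308 and 4558 (1.17-fold). Rpl19 had 24231 in KO and 13814 in WT (1.10-fold lower, 1.08 to 1.13). With the trend removed, Rpl23a, Rpl35, Rpl31 and Rpl19 stood at 0.32, 0.03, -0.08 and -0.36 on the log2 scale. The median of the 8 genes was then 0.08, with 1 higher (beside 5.01% of all genes) and 1 lower (beside 5.04%).

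Rpl17, which meets the nascent chain at the narrowest part of the tunnel, was the single core gene at least 1.5-fold lower. It lies on chromosome 18 (74998558 to 75003381) and had 21002 reads in the KO library and 17993 in the WT library, 1.66-fold lower (1.62 to 1.69). Its log2 ratio was -0.73, and also -0.73 with the GC and length trend removed. Of its sequence, 78.7% of 50-base stretches occur in transcripts of other genes, 51 genes in all, and the part of such copies in the result was not tested. Other large subunit genes lay less far below 0. Rpl32 (7014 and 4205 reads), Rpl24 (6632 and 3799) and Rpl6 (36589 and 20283) were 1.16-fold, 1.11-fold and 1.07-fold lower.

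The 5S particle, made of Rpl5, Rpl11 and 5S ribosomal RNA, can bind Mdm2 and so stabilise p53 when ribosome assembly is disturbed. Rpl11 had 16266 reads in KO and 8766 in WT (1.04-fold lower, 1.02 to 1.07). Both genes of the particle thus lay within 1.1-fold, on the lower side; with the trend removed Rpl5 was at 0.13 and Rpl11 at -0.15.

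Rpl13a, which in human monocytes also silences inflammatory mRNAs outside the ribosome, had 17031 reads in KO and 5692 in WT (1.55-fold higher, 1.502 to 1.595). It stayed past 1.5-fold with the trend removed (0.59), but its exons overlap Gm45713 and the microRNA gene Mir5121 on the same strand. Just under the threshold were Rpl37a (2432 and 864 reads, 1.46-fold), Rpl36a (3159 and 1135, 1.44-fold) and Rpl13 (24236 and 8770, 1.43-fold). With the trend removed, Rpl37a, Rpl36a and Rpl13 stood at 0.42, 0.37 and 0.18 on the log2 scale.

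The core genes of the small subunit covered a narrower range of log2 ratios, from -0.41 to 0.78, beside -0.73 to 1.34 for those of the large subunit. Rps29, mutated in some families with Diamond-Blackfan anemia, had 3879 reads in the KO library and 1167 in the WT library (1.72-fold higher, 1.61 to 1.84). Rps10, another gene of that disease, had 7625 in KO and 2310 in WT (1.71-fold higher, 1.63 to 1.79). Rps19, the gene most often mutated in it, had 11864 in KO and 3877 in WT (1.58-fold higher, 1.53 to 1.64). Rps21 had 1739 in KO and 576 in WT (1.56-fold higher, 1.42 to 1.72). Rps27a, which is made as a fusion with ubiquitin, had 24454 in KO and 8114 in WT (1.56-fold higher, 1.52 to 1.60).

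None of these 5 was at 1.5-fold with the GC and length trend removed, where their log2 ratios were 0.46, 0.32, 0.13, 0.34 and 0.55 in the order given. Rps10 shares exons with the readthrough gene RPS10-NUDT3 on the same strand, and 92.4% of its 50-base stretches occur in other genes. Rps16, with 23507 reads in KO and 8223 in WT, stood just under the threshold at 1.48-fold (1.44 to 1.52) and was at 0.64, past it, with the trend removed. Rps15a (7543 and 2639 reads) was likewise 1.48-fold higher.

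At the low end of the small subunit, Rps7, a further Diamond-Blackfan gene, had 11906 reads in KO and 8159 in WT (1.33-fold lower, 1.29 to 1.36). Rps26, in the channel where the mRNA leaves, had 5753 in KO and 3829 in WT (1.29-fold lower, 1.24 to 1.34). Rps6, the substrate of the S6 kinases downstream of mTORC1, had 45210 in KO and 28184 in WT (1.21-fold lower, 1.19 to 1.22). Rps18 (6444 and 3936 reads) was 1.18-fold lower, Rps2 (37642 and 22111) 1.14-fold and Rpsa (46352 and 27091) 1.13-fold. All 6 were lower with the trend removed as well, between -0.54 for Rps18 and -0.26 for Rps6.

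Of the 4 genes at the mRNA entry and decoding site, all lay between. Their log2 ratios were -0.18 for Rps2, 0.22 for Rps3, 0.23 for Rps23 and 0.47 for Rps15. With the trend removed they were -0.40, 0.38, 0.31 and -0.05 in the same order. At the mRNA exit, Rps26 at -0.36, Rps28 at 0.28 and Rps14 at 0.36 also lay between. With the trend removed, Rps26, Rps28 and Rps14 stood at -0.43, -0.09 and 0.06. Among the 16 measured of 18 genes mutated in human Diamond-Blackfan anemia, 4 were higher (25%, beside 7.43% of all measured genes) and 12 between, and the median was 0.22. The 4 were Rpl35a, Rps29, Rps10 and Rps19, and with the trend removed 1 of the 16, Rpl35a, was past 1.5-fold, beside 5.01% of all genes, and the median was 0.01.

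The 2 subunits differed little from each other. The 46 measured Rpl genes had a median log2 ratio of 0.26 (quartiles 0.04 and 0.51), with 9 higher (19.6%) and 1 lower (2.17%). The 33 measured Rps genes had a median of 0.23 (quartiles 0.03 and 0.47), with 6 higher (18.2%) and 1 lower (3.03%). Of all measured genes, 7.43% were higher and 5.51% lower. The medians of Rpl and Rps were thus 0.03 apart. With the GC and length trend removed they were 0.13 and 0.20, in the opposite order. Then 4 Rpl and 2 Rps genes were higher and 1 of each lower, beside 5.01% and 5.04% of all genes. Rpl genes took 3.31% of gene reads in the KO library and 3.27% in the WT library, and Rps genes 2.17% and 2.11%.

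Within the family the ratio went with the length of the mRNA, and about as closely with the read level. Over the 73 measured core genes, the Spearman correlation of log2 ratio and mRNA length was -0.50 (Pearson -0.44 on log length). With coding length it was also -0.50. With the mean CPM of both libraries it was -0.49 (Pearson -0.52 on log CPM). These are descriptions over genes that share both libraries. The 24 core genes with the shortest mRNAs, of 345 to 597 nucleotides, are called the short group. Their median log2 ratio was 0.47, and 8 passed 1.5-fold upward (33.3%, beside 7.43% of all measured genes) and 0 downward (beside 5.51%). The next 24, the middle group of 612 to 860 nucleotides, had a median of 0.25, with 3 higher (12.5%) and 1 lower (4.17%). The remaining 25, the long group of 878 to 3706 nucleotides, had a median of 0.05, with 1 higher (4%) and 0 lower.

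The summed reads gave the same order. Those of all measured genes were 1.055-fold higher after TMM scaling, which is above the fold of the long group. The short group took 0.814% of gene reads in the KO library and 0.652% in the WT library (1.32-fold higher, 1.31 to 1.33). The middle group took 1.60% in KO and 1.53% in WT (1.10-fold higher, 1.09 to 1.10), and the long group 3.05% in KO and 3.18% in WT (1.01-fold higher after TMM scaling, 1.01 to 1.02, below 1 with total counts as the shares show). The short group held Rpl36, Rpl35a, Rplp1, Rplp2, Rps29 and Rps10 among others, but also Rps18 and Rpl32, which were lower. Rpl39 stood in the middle group, with an annotated mRNA of 612 nucleotides around a coding sequence of 153.

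Length went with the ratio outside the family too, at its short end. Among the 178 measured genes that are no members and have an mRNA of up to 597 nucleotides, the median log2 ratio was 0.24 and 28.1% passed 1.5-fold upward, beside 33.3% of the short group. In the shortest of 10 equal bins of all measured genes, up to 1142 nucleotides, the median was 0.16, and 60 of the 73 core genes fell in it with a median of 0.29. Over all measured genes the Spearman correlation with length was -0.03. With the GC and length trend removed, the correlation with mRNA length within the core genes was -0.03 and that with coding length -0.27. That with mean CPM was -0.23. The medians of the short, middle and long groups were then 0.23, -0.00 and 0.20. Higher in these groups were then 1, 1 and 2 genes, beside 5.01% of all genes, and lower 0, 1 and 0, beside 5.04%.

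**Figure D2:**
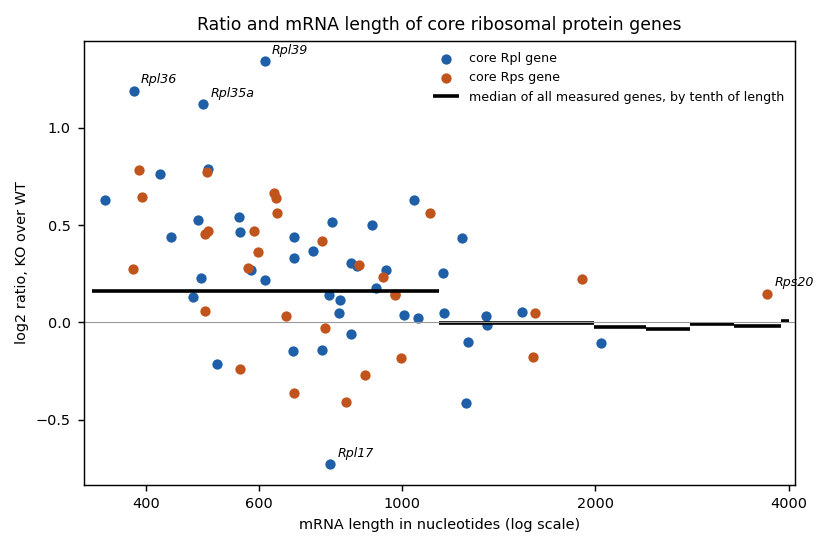
Log2 ratio of KO over WT against annotated mRNA length for the 73 measured core genes (blue Rpl, orange Rps); black lines are the medians of all measured genes in each of 10 equal bins of length. The cloud falls from left to right, with Rpl36, Rpl35a and Rpl39 highest among short mRNAs, while the line for all genes lies at 0.16 in the shortest bin and close to 0 beyond.

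Level per length varied far more between ribosomal protein genes than between the libraries. In TPM, a share of transcripts that divides reads by mRNA length, the core genes spanned 165 to 5179 TPM in the KO library with a median of 2015, and 140 to 6550 TPM in the WT library with a median of 1651. Rps6 was highest in both libraries, at 5179 TPM in KO and 6550 TPM in WT, and Rpl37 lowest, at 165 TPM in KO and 140 TPM in WT. The Spearman correlation of TPM in the 2 libraries over the 73 genes was 0.94.

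Among large subunit genes, Rpl4 (4554 TPM in KO, 4609 TPM in WT), Rplp0 (3841 and 4070 TPM), Rpl17 (2725 and 4737 TPM) and Rpl9 (4095 and 3169 TPM) were among the highest by mean level. Rpl39 (603 and 249 TPM), Rpl27 (469 and 422 TPM), Rpl37a (438 and 316 TPM), Rpl38 (370 and 251 TPM) and Rpl37 were lowest. Among small subunit genes, Rps2 (3793 and 4521 TPM), Rps4x (3536 and 3350 TPM), Rps27a (3861 and 2599 TPM) and Rpsa (2915 and 3457 TPM) followed Rps6. Rps29 (1000 and 611 TPM), Rps28 (468 and 406 TPM), Rps21 (444 and 298 TPM) and Rps20 (222 and 210 TPM) were low. The annotated mRNA of Rps20 is 3706 nucleotides long around a coding sequence of 357, and per coding length it ranked 20 of 30. Other ranks depended on the annotated length too. Among Rpl genes, Rpl39 moved from 40 to 32 of 43 per coding length and Rpl9 from 5 to 10. Rpl38 and Rpl37 stayed at 42 and 43.

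These levels are those of uniquely placed reads, not of whole mRNAs. Ribosomal protein genes have many processed copies in the genome, and reads that align to several places were not counted. Over the measured core genes a median of 55.4% of the 50-base stretches of the mRNA occurred in transcripts of other genes, from 0% to 92.4%, the share of Rps10. Over the same genes this share had a Spearman correlation of 0.02 with the log2 ratio. The spread of levels between genes was 1.03 in the KO library and 1.19 in the WT library (SD of log2 TPM over 73 genes).

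**Figure D3:**
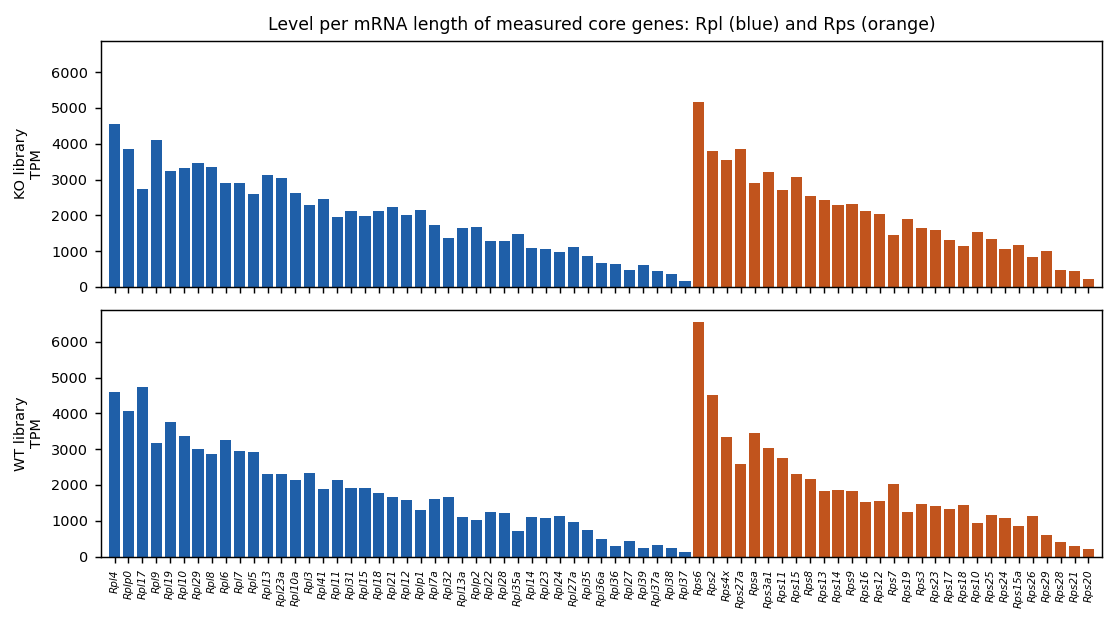
Level per mRNA length (TPM) of 71 of the 73 measured core genes in the KO library (upper bars) and the WT library (lower bars), with Rpl genes in blue and Rps genes in orange, each ordered by the mean of both libraries. Rps6 is the tallest bar in both, Rpl37 the lowest, and Rpl17 is visibly taller in WT.

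Of the 87 members, 8 did not reach 20 reads on average, 4 of them core genes. Rpl26 and Rpl30 are listed at 0 reads in both libraries. Rps27 had 8 reads in KO and 1 in WT, and Rpl34 had 9 and 2. Every growing cell uses these 4 genes, and the values are given only as listed. For Rps27, 98.6% of 50-base stretches occur in other genes, for Rpl26 71.3%, for Rpl34 50.6% and for Rpl30 47.8%. The part of shared sequence in these low counts was not tested. The other 4 were the testis and muscle paralogs and retrogenes Rpl10l (0 and 0 reads), Rps27rt (0 and 0), Rpl39l (1 and 4) and Rpl3l (3 and 0). In all, 7 pseudogene rows with these prefixes, which are no members, held 64 reads in KO and 23 in WT.

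The 5 paralogs that were measured went different ways. Rpl22l1, whose mRNA is known in mice to be repressed by its paralog Rpl22, had 886 reads in the KO library and 250 in the WT library (1.83-fold higher, 1.59 to 2.12). Rpl22, which mouse αβ T cell development needs, had 6105 in KO and 2881 in WT (1.10-fold higher, 1.05 to 1.15). Rpl22l1 thus supplied 12.7% of the reads of the pair in the KO library (11.9 to 13.5) and 7.98% in the WT library (7.06 to 8.99). Its log2 ratio was 0.87, and 0.85 with the GC and length trend removed; an exon of Gm33051 overlaps it on the opposite strand.

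Rps27l, a paralog of Rps27 that p53 induces in human cells, had 259 reads in KO and 75 in WT (1.79-fold higher, 1.38 to 2.34; log2 ratio 0.71 with the trend removed). Rpl36al had 1131 in KO and 360 in WT (1.63-fold higher, 1.44 to 1.83), with an exon overlap with Gm49383 on the same strand. With the trend removed, Rpl36al had a log2 ratio of 0.52, under 1.5-fold. Its partner Rpl36a was 1.44-fold higher, so that the share of Rpl36al in the pair was 26.4% in KO (25.1 to 27.7) and 24.1% in WT (21.9 to 26.3). Rpl7l1, which takes part in ribosome assembly, was lower, with 1564 reads in KO and 1076 in WT (1.33-fold lower, 1.23 to 1.44), while Rpl7 had 33497 and 16774 (1.03-fold higher, 1.01 to 1.05, below 1 with total counts). Rps4l, which the GENCODE annotation lists as a transcribed processed pseudogene, had 18 reads in KO and 26 in WT (2.79-fold lower, 1.47 to 5.41), and its partner on chromosome X, Rps4x, had 34278 and 16010 (1.11-fold higher, 1.09 to 1.13). Rps19bp1 had 202 in KO and 101 in WT, a ratio of 1.03 (0.811 to 1.33).

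Of ribosomal proteins whose symbols fall outside the rule, Fau and Gnb2l1 differed in direction. Fau, a ubiquitin-like protein fused to a small subunit protein, had 16504 reads in KO and 5985 in WT (1.43-fold higher, 1.38 to 1.47; 0.01 on the log2 scale with the trend removed). Gnb2l1, which encodes the small subunit scaffold Rack1, had 23081 in KO and 22913 in WT (1.92-fold lower, 1.89 to 1.96), with a log2 ratio of -0.94, and -0.82 with the trend removed.

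Other gene groups of protein synthesis and turnover did not lie as high as the short ribosomal protein mRNAs, but their mRNAs were longer. Median lengths were 1223 nucleotides for mitochondrial ribosomal, 1476 for proteasome and 1918 for other TOP and translation factor genes. The short group had a median length of 494 nucleotides. The long group, at 1158 nucleotides, had a median log2 ratio of 0.05. Among 77 mitochondrial ribosomal protein genes the median was 0.02, with 8 higher (10.4%, beside 7.43% of all measured genes) and 0 lower; with the trend removed, 6 were higher and 1 lower. The 38 measured proteasome subunit genes had a median of 0.09, with 2 higher (5.26%) and 0 lower. For 17 other genes with TOP mRNAs or for translation factors the median was -0.04, with 1 higher (5.88%) and 0 lower. The higher one, Hnrnpa1, had only 59 reads in KO and 18 in WT. The elongation factor Eef1a1, the most counted of them, had 375917 reads in KO and 202667 in WT (1.04-fold lower, 1.04 to 1.05), and Eef2 had 164898 and 76376 (1.12-fold higher, 1.11 to 1.13). With the trend removed, the medians of these 3 groups were 0.06, 0.13 and 0.05. That of all measured ribosomal protein genes was 0.13, and that of the short group 0.23.

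Genes linked to the translation of TOP mRNAs or to ribosome production also differed little as a list. These 10 genes, which include the member Rps6, had a median of 0.13. Of them, 1 was higher (10%, beside 7.43% of all measured genes) and 0 lower. The higher one was Myc, a transcription factor that drives ribosome production, with 5204 reads in KO and 1559 in WT (1.73-fold higher, 1.63 to 1.83; log2 ratio 0.57 with the trend removed, under 1.5-fold). Larp1, which binds TOP mRNAs, had 9639 in KO and 3478 in WT (1.43-fold higher, 1.38 to 1.49). Mtor had 1863 and 812 (1.19-fold higher) and Rps6kb1, an S6 kinase, 1068 and 632 (1.14-fold lower).

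**Figure D4:**
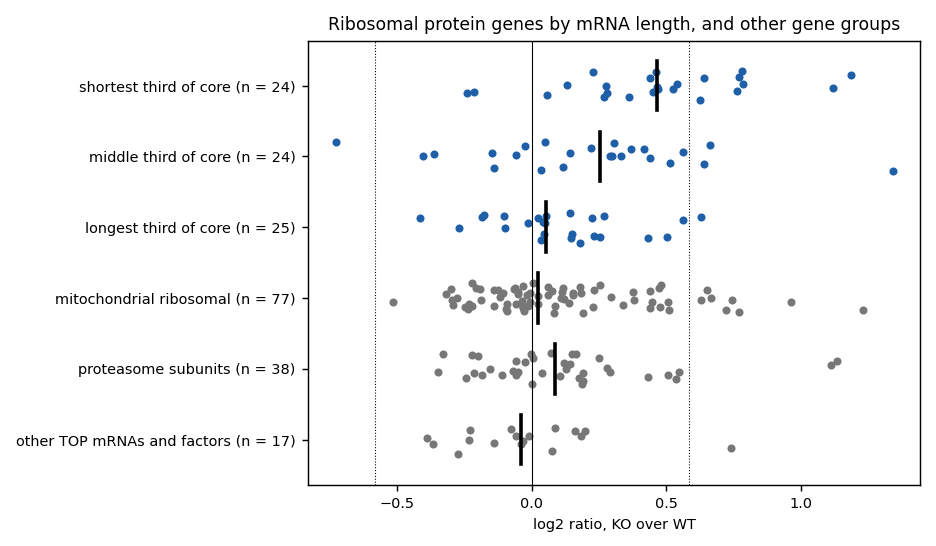
Log2 ratio of KO over WT for measured core ribosomal protein genes in the short, middle and long groups by mRNA length (blue) and for 3 other groups (grey); each point is a gene, placed with vertical jitter, black bars are medians and dotted lines mark 1.5-fold. The medians are 0.47, 0.25 and 0.05 from the short to the long group, and 0.02, 0.09 and -0.04 for mitochondrial ribosomal, proteasome and other TOP genes.

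Pyrimidine tracts and other motifs were looked for at the start sites. RefSeq promoters (build GRCm38.p6) were at hand for 57 core genes with 67 annotated starts. The letters CTTTC on the coding strand, a core of the TOP tract, lay within 30 bases of 32.8% of these starts, beside 7.93% of all 32851 starts. The letters CCGGAAG on either strand, the site of ETS factors, lay in the 300-base window of 37.3% of them, beside 8.86% of all, so each motif was missing from most starts of core genes. Both motifs were chosen after the sequences were seen, and their letters do not overlap. Measured core genes with CTTTC had a median log2 ratio of 0.33 (19 genes) and those without it 0.22 (35 genes). For CCGGAAG the medians were 0.18 (22 genes) with it and 0.30 (32 genes) without. Annotated starts are often some bases away from the start in the cell, so a tract can lie on either side. Of 15 genes whose 30 bases around the start hold CTTTC, the top 4 and the bottom 4 by ratio are shown, to let the surrounding letters be compared between genes with high and low ratios, each 5′ to 3′ on the coding strand with CTTTC in capitals.
Rpl35a (chr16:33056467-33056496, plus strand): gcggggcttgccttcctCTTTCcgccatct
Rps10 (chr17:27635230-27635259, minus strand): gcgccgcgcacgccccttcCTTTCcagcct
Rplp2 (chr7:141447636-141447665, plus strand): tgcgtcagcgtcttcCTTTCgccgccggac
Rpl13a (chr7:45128731-45128760, minus strand): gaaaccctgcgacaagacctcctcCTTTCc
Rpl7a (chr2:26910792-26910821, plus strand): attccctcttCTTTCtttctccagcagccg
Rpl28 (chr7:4792950-4792979, plus strand): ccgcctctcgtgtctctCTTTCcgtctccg
Rpl15 (chr14:18270972-18271001, minus strand): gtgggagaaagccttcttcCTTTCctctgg
Rps26 (chr10:128626492-128626521, minus strand): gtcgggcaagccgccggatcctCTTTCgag
Each was chosen for holding CTTTC, so its presence says nothing of the ratios, which run from 1.12 for Rpl35a to -0.36 for Rps26 on the log2 scale. These matches are descriptions of the reference sequence.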

How the data were processed

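The authors deposited raw read counts per gene symbol for both libraries; the tools named in the submitters' processing notes are HTSeq and TopHat2 2.0.3, and the build is mm10. Not given in the sources used here are the annotation, the strand setting and the read length, so reads of antisense neighbours cannot be told apart. Of all counted reads, 76.6% were assigned to genes in each library; reads at several places (15.0% in KO, 15.6% in WT), outside exons (6.81% and 6.26%) and shared between genes (1.57% and 1.53%) were left out.

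Scaling of the counts used TMM (edgeR 4.0.16, R 4.3.3), with factors of 0.974 in KO and 1.03 in WT. Log2 ratios took a pseudocount of 1, and genes a mean of 20 raw counts. Exact conditional binomial 95% intervals use no pseudocount and cover counting error only, since reads without molecular identifiers are not independent molecules. Lengths, GC content and overlaps came from GENCODE M21 (GRCm38): for each gene the shortest of its best supported principal transcripts. The GC and length trend was fitted with mgcv 1.9.3. Sharing with other genes was counted over exact 50-base stretches of annotated transcripts. DESeq2 1.42.0 gave an alternative scaling only. Tables used Python 3.11.15, pandas 2.3.3 and scipy 1.17.1, and figures matplotlib 3.10.9. The ratio code was tested on simulated data.

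Members, lists and groups were chosen with earlier results of these data known. Named are members at 1.5-fold or more, the highest and lowest ratios and levels of each subunit, small role groups, paralog pairs, and members that cross 1.5-fold under an alternative. The targeted gene and some ribosomal protein genes are not reported here; these genes stay in the group values.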

Additional observations from a re-analysis of the deposited data

How the results depend on the processing

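No paired analysis was possible because each group had 1 library and no test was run. With DESeq2 size factors, a pseudocount of 5, or no minimum count, 15 to 18 members were higher and 2 to 3 lower. The median of all members was 0.25 to 0.27. Without a minimum count 83 members were compared instead of 79. With total counts as scaling, 11 members were higher and the summed fold was 1.02. The medians were 0.18 for all members, 0.19 for Rpl and 0.16 for Rps. All measured genes moved down as well, to a median of -0.06. Rpl13a, Rpl38, Rps21 and Rps27a were then under 1.5-fold. A minimum mean of 100 counts removed Rps4l and left 1 lower member, as did leaving out the paralogs. With the GC and length trend removed, 6 members were higher (beside 5.01% of all genes), 5 of them among the 15, and Rps16 was gained. The medians were then 0.13 for all members, 0.13 for Rpl and 0.20 for Rps, the summed fold 1.03, and the difference of Rpl minus Rps turned to -0.073. Among 33 members with under 50% of their 50-base stretches in other genes, a choice made after seeing the data, 4 were higher and 1 lower, the Rpl median was 0.092 and the difference between subunits -0.14. Leaving out Rps19bp1, also chosen after seeing the data, left 15 higher and 2 lower. The cause of these moves was not tested. Apart from trend removal, the share of all genes past 1.5-fold was not counted under these alternatives. Their counts therefore cannot be set against the 7.43% of all genes found higher in the main setting. Depth limits the paralogs most: Rps4l rests on 18 reads in KO and 26 in WT.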
